A study of Mus musculus with 2 samples.

Results

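Immunoglobulin light chain variable (V) genes were taken as all genes of the deposited gene tables whose symbol starts with Igkv or Iglv. They numbered 163 of 32285 genes, 160 Igkv genes on chromosome 6 and 3 Iglv genes on chromosome 16, and the annotation lists 103 as genes and 60 as pseudogenes. The data are 2 droplet single-cell RNA libraries (10x Chromium 3' v3) from mice with osteoporotic fractures whose bone was held by an intramedullary nail, a rod inside the bone. The library named Mg-TAGelMA came from mice with Mg-TAGelMA nails, an abbreviation that the labels do not spell out, and the library named Mg came from mice with magnesium (Mg) nails. Both groups carried a fracture and a nail, so no sample without an implant stands beside them. Each library combined femoral marrow with cells that adhered to the nail, and strain, age, time after surgery and number of mice are not given in the sources used here. There was 1 library per nail, so no test of the nails was possible, and every interval below is an exact 95% interval that covers counting error only. The Mg-TAGelMA library held 7591 barcodes and 79890998 unique molecular identifiers (UMIs), the Mg library 9466 barcodes and 58261391 UMIs. After filtering, 7226 Mg-TAGelMA cells with a median of 6744 UMIs and 8122 Mg cells with a median of 3803.5 UMIs were used. The libraries shared 21 barcodes.

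A light chain is built by joining 1 V segment to a joining (J) segment in front of a constant gene, at the kappa locus (Igkv, Igkc) or at the lambda locus (Iglv, Iglc). In the marrow this happens after the heavy chain is made. Large pre-B cells carry the surrogate light chain (Vpreb1, Vpreb2, Igll1) and divide, small pre-B cells express the recombinase genes Rag1 and Rag2 and rearrange the light chain loci, and immature B cells then show a complete receptor. Unrearranged V genes can also be transcribed from their own promoters before joining, as germline transcripts. Mature B cells add IgD (Ighd), and plasma cells transcribe their 1 rearranged light chain at very high levels and secrete it. A 3' library reads mostly the constant end of such a transcript, so V genes are seen only through the minority of fragments that reach the V segment.

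The members that carried most of the signal differ in how well their sequence sets them apart. Iglv1 (chr16:19085017-19085500, GRCm38, minus strand) and Iglv2 (chr16:19260401-19260859, minus strand) are shown because reads of the pair are separated by few bases. Their 351-base coding sequences, taken from the GENCODE vM21 transcripts for GRCm38, are identical at 340 bases (96.9%). The last 300 coding bases are written 5' to 3', from base 52 on, with capitals at the 8 of 11 differing bases that lie in this stretch.
Iglv1: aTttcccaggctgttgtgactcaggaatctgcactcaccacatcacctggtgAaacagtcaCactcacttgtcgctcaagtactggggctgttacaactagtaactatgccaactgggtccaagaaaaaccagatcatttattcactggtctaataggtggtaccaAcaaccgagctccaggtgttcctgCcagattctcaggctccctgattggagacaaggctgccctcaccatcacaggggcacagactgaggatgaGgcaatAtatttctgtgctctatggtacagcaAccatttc
Iglv2: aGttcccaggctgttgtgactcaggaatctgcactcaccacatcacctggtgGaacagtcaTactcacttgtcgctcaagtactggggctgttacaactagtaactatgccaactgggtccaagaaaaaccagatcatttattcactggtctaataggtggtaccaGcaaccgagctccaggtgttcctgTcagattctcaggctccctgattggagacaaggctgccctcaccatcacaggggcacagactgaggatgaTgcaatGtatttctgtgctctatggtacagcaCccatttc
The remaining lambda V gene, Iglv3 (chr16:19241207-19241690, minus strand), shares 55.7% with Iglv1. For Iglv3 and the kappa genes on which the results turn, the last 90 coding bases are given, the end nearest the join, with the codon of the conserved cysteine before the third hypervariable loop in capitals. Igkv1-117 (chr6:68121046-68121827, plus strand), Igkv1-110 (chr6:68270485-68271267, plus strand), Igkv1-135 (chr6:67609713-67610508, plus strand) and Igkv1-35 (chr6:70010949-70011673, minus strand) belong to the Igkv1 family. Igkv19-93 (chr6:68736297-68736780, minus strand) and Igkv12-44 (chr6:69814631-69815154, minus strand) are members of other families.
Iglv3: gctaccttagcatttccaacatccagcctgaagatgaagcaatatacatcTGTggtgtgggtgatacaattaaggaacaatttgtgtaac
Igkv1-117: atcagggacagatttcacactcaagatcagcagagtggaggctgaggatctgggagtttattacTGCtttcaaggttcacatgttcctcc
Igkv1-110: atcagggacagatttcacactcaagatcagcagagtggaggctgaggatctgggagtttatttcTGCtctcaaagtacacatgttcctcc
Igkv1-135: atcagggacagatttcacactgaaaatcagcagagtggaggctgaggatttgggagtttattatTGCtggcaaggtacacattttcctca
Igkv1-35: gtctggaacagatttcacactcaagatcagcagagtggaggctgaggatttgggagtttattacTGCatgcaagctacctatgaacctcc
Igkv19-93: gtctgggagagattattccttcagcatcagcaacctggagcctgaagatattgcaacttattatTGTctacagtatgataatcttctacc
Igkv12-44: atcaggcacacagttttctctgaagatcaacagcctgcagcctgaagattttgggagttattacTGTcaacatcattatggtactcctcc
Igkv1-117 and Igkv1-110 share 97.2% of their coding bases, and of their 90-base transcript windows 78.1% (Igkv1-117) and 77.9% (Igkv1-110) occur in no other gene's transcript. For Igkv1-35, Igkv19-93 and Iglv3 that share is 100%, for Iglv1 it is 95% and for Iglv2 94.6%. Over the 103 members annotated as genes the median is 99.2%, 47 are fully unique and 4 have under 50% unique windows, so the counts of near-identical pairs are uncertain between the members of the pair. The annotated gene of Igkv1-35 runs opposite to Igkc, and that of Igkv1-117 runs with it. A kappa V gene can join in either orientation, by inversion or by deletion of the DNA between.

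Cells were staged by marker genes that include no light chain gene. B lineage cells had at least 5 UMIs, summed, of a short list of B lineage genes that includes Cd79a and Cd79b, the signalling chains of the B cell receptor. Those with at least 2 UMIs of Vpreb1, Vpreb2 and Igll1 were called surrogate light chain-positive (167 Mg-TAGelMA and 340 Mg cells). The rest with a Rag1 or Rag2 UMI were called Rag-positive pre-B (373 Mg-TAGelMA and 1097 Mg cells). Of the remaining cells, those with at least 2 Ighd UMIs were called Ighd-positive B (597 Mg-TAGelMA and 1111 Mg cells), and those with Ms4a1 (the B cell surface protein CD20) but 0 Ighd UMIs were called Ighd-negative B (189 Mg-TAGelMA and 356 Mg cells). Plasma cells had at least 20 UMIs of Jchain, which links IgA and IgM units, and at least 3 further plasma cell genes (37 Mg-TAGelMA and 12 Mg cells). Genes outside the gates were read as a check of the stages. Dntt, the enzyme that adds bases at heavy chain joins, read 166 CPM in Mg-TAGelMA and 274 CPM in Mg surrogate light chain-positive cells, where CPM is UMIs scaled to 1000000 UMIs of the same cells, and at most 5.73 CPM in the later B stages. Fcer2a (CD23 of mature B cells) read 161 CPM in Mg-TAGelMA and 344 CPM in Mg Ighd-positive cells. An Ighd UMI was found in 47.3% of Mg-TAGelMA and 44.7% of Mg surrogate light chain-positive cells. In Rag-positive cells it was found in 37.3% in Mg-TAGelMA and 35.6% in Mg, so the gates overlap. In Ighd-negative cells Fcer2a was seen in 28.0% in Mg-TAGelMA and 13.5% in Mg (75.1 and 69.3 CPM). Cd93, an immature B cell gene, was seen in 19.0% of Mg-TAGelMA and 40.4% of Mg cells of that gate. The Ighd-negative gate may thus hold unlike cells in the libraries. Cells gated as neutrophil, monocyte and macrophage, T and NK, or erythroid (4397 Mg-TAGelMA and 3377 Mg cells together, the other lineages below) gave the background. The neutrophil gate held 3287 Mg-TAGelMA and 1432 Mg cells, in which the neutrophil gene S100a8 read 121317 CPM in Mg-TAGelMA and 69138 CPM in Mg. That gate was itself set on marker UMIs, so this level is not a check of it. S100a8 was also counted outside the gate, at 3997 CPM in Mg-TAGelMA and 1014 CPM in Mg Ighd-positive B cells.

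Light chain V genes gave 6792 UMIs in Mg-TAGelMA and 2504 UMIs in Mg cells. In the Mg-TAGelMA library 97 members had a UMI, in the Mg library 115, and 85 were seen in both. The level was higher in Rag-positive than in surrogate light chain-positive cells in both libraries, and plasma cells stood far above all other stages. Surrogate light chain-positive cells read 50.8 CPM (42.9 to 59.8) in Mg-TAGelMA, against 15.9 CPM (13 to 19.3) in Mg. Rag-positive pre-B cells read 226 CPM (208.5 to 245) in Mg-TAGelMA and 96.9 CPM (88.9 to 105) in Mg. Ighd-negative B cells read 105 CPM (88.0 to 125) in Mg-TAGelMA and 178.5 CPM (157.5 to 202) in Mg. The libraries thus differed in their highest stage before the plasma cell, Rag-positive in Mg-TAGelMA and Ighd-negative in Mg. Ighd-positive B cells read 76.2 CPM (67.1 to 86.2) in Mg-TAGelMA and 102.7 CPM (93.2 to 113) in Mg. Plasma cells read 3976 CPM (3862 to 4093) in Mg-TAGelMA and 2954 CPM (2736 to 3184) in Mg. The other lineages read 7.53 CPM (6.70 to 8.42) in Mg-TAGelMA and 3.0 CPM (2.33 to 3.81) in Mg. The stage nearest to background was the surrogate light chain-positive one, at 6.75 times the level of the other lineages in Mg-TAGelMA and 5.29 times in Mg.

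**Figure D1:**
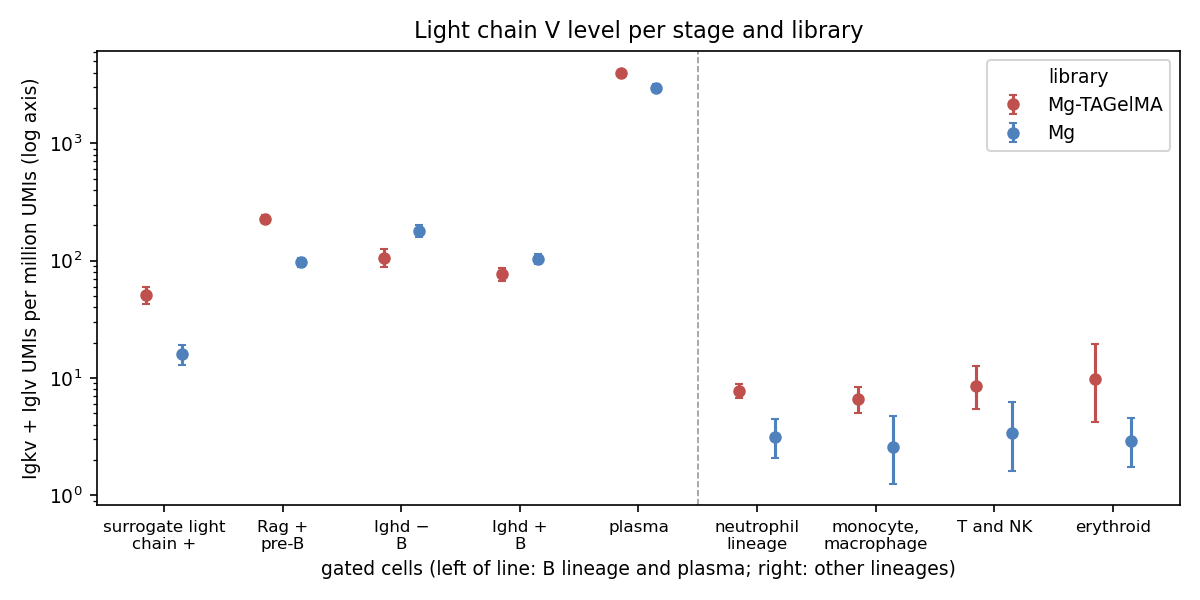
Light chain V level in CPM (log axis) in each gated population, with exact 95% intervals of counting error, Mg-TAGelMA beside Mg. Plasma cells read 3976 CPM in Mg-TAGelMA and 2954 CPM in Mg, and the other lineages, right of the line, 7.53 CPM in Mg-TAGelMA and 3.0 CPM in Mg together.

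Between the libraries, the Mg-TAGelMA level was 3.20 times the Mg level in surrogate light chain-positive cells (2.47 to 4.16) and 2.34 times in Rag-positive cells (2.08 to 2.63). It was 1.70-fold lower in Ighd-negative cells (1.37 to 2.11) and 1.35-fold lower in Ighd-positive cells (1.15 to 1.58), and 1.35 times the Mg level in plasma cells (1.24 to 1.46). The background differed as well, at 2.50 times the Mg level in the other lineages (1.92 to 3.31). With each cell thinned to 1000 UMIs, the ratios along the B stages were 2.44 (0.967 to 6.31), 1.90 (1.45 to 2.49), 0.739 (0.471 to 1.13) and 0.858 (0.596 to 1.22). They were 1.57 (1.04 to 2.45) in plasma cells and 1.48 (0.831 to 2.71) in the other lineages. Thinning left 12, 92, 31 and 48 V UMIs along the Mg-TAGelMA B stages and 10, 142, 79 and 104 along those of Mg. Plasma cells kept 132 in Mg-TAGelMA and 28 in Mg, the other lineages 38 in Mg-TAGelMA and 19 in Mg. With so few counts, an interval that includes 1 does not show equal levels. At equal depth the interval left out 1 in Rag-positive and plasma cells only. Before thinning, a single plasma cell held up to 507 of the 4567 V UMIs in Mg-TAGelMA and 219 of the 682 in Mg. The plasma cell intervals do not cover this spread between cells, so they are not read as a difference between the libraries. With gate minimums raised by 1 the Ighd-negative ratio was 0.814 (0.655 to 1.01). Igkc, the kappa constant gene, differed in the same direction in each of these populations, at 3.0, 1.65, 0.653, 0.874 and 1.75 times the Mg level along the stages from surrogate light chain-positive to plasma and 4.08 times in the other lineages. In surrogate light chain-positive cells Igkc read 1601 CPM in Mg-TAGelMA and 534 CPM in Mg. The other lineages read 910 CPM of Igkc in Mg-TAGelMA and 223 CPM in Mg. Background may thus make up a large part of the Igkc counts of that stage, and it was not subtracted. Igkv UMIs were also set against Igkc UMIs of the same cells. Per 1000 Igkc UMIs, Mg-TAGelMA cells had 26.7 Igkv UMIs in the surrogate light chain-positive stage, 44.0 (40.3 to 48.0) in the Rag-positive, 16.9 in the Ighd-negative and 10.9 in the Ighd-positive stage and 4.12 in plasma cells. Mg cells had 27.4, 27.7 (25.1 to 30.5), 17.3, 12.1 and 5.07 in the same order. Relative to Igkc, V counts were thus lowest in plasma cells of both libraries. The libraries differed in Rag-positive cells, with a ratio of 1.59 (1.40 to 1.81), while the intervals of the ratio in the other 3 B stages include 1. It was lower than in Mg in plasma cells (0.814, 0.713 to 0.932) and in the other lineages (0.574, 0.409 to 0.820).

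The share of cells with a V UMI ordered the libraries as the level did in the B stages. In Mg-TAGelMA it was 49.1% of surrogate light chain-positive, 67.8% of Rag-positive, 37.6% of Ighd-negative and 27.8% of Ighd-positive cells, 97.3% of plasma cells and 6.48% of the other lineages. In Mg it was 23.2%, 36.6%, 47.8%, 28.6%, 100% and 1.84% in the same order. Median depths of the B stages ran from 4614 to 11471 UMIs in Mg-TAGelMA and from 3266 to 15618 UMIs in Mg, with 7273 UMIs in the Mg-TAGelMA and 4681 UMIs in the Mg other lineages. To set depth equal, each cell was thinned to 1000 UMIs, which left out 85 Mg-TAGelMA and 193 Mg cells of the other lineages. The shares were then 6.59%, 21.7%, 12.7% and 7.54% along the Mg-TAGelMA B stages, against 0.881% in the other lineages. Along the Mg B stages they were 2.35%, 11.7%, 18.5% and 8.56%, against 0.597% in the other lineages. Rag-positive cells kept the highest share of the B stages in Mg-TAGelMA, and Ighd-negative cells in Mg.

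Mki67, a gene of proliferating cells, differed in level between the libraries, at 153 CPM in Mg-TAGelMA and 906.5 CPM in Mg Rag-positive cells, and its part in the difference of the V level was not tested beyond the split that follows. A UMI of it was seen in 64.7% of Mg-TAGelMA and 80.3% of Mg surrogate light chain-positive cells, and in 20.9% of Mg-TAGelMA and 38.0% of Mg Rag-positive cells. In Ighd-positive cells it was seen in 11.6% in Mg-TAGelMA and 17.0% in Mg, and these shares are not matched for depth. In Rag-positive cells without an Mki67 UMI the V level was 298 CPM in Mg-TAGelMA and 158 CPM in Mg, a ratio of 1.88 (1.65 to 2.16). In Rag-positive cells with an Mki67 UMI it was 105 CPM in Mg-TAGelMA and 52.0 CPM in Mg, a ratio of 2.01. The level was therefore higher where Mki67 was not seen in both libraries, and the libraries differed in both kinds of cell. For surrogate light chain-positive cells the ratio was 1.33 without Mki67 (0.75 to 2.46, an interval that includes 1) and 3.32 with it. The Ighd-negative ratio was 0.73 without Mki67 (0.58 to 0.92) and 0.28 with it, and the Ighd-positive ratio was 0.72 without (0.60 to 0.86) and 0.82 with it (0.58 to 1.16).

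The libraries also parted along 1 annotated feature of the members. A V gene has a short leader exon and a main exon with 1 intron between. This intron is at least 300 bases in 19 Igkv members (342 to 485 bases, median 386). The other 141 have a shorter annotated intron or, as some pseudogenes do, none (median 173, with none counted as 0 bases). The long class holds members of the Igkv1 and Igkv2 families, such as Igkv1-117 (378 bases) and Igkv1-35 (363 bases), while Igkv19-93 (121 bases) and Igkv12-44 (123 bases) are in the short class. Along the B stages, from surrogate light chain-positive to Ighd-positive, long-intron members gave 64, 315, 65 and 92 UMIs in Mg-TAGelMA and 31, 164, 45 and 67 UMIs in Mg. Their Mg-TAGelMA level was higher in each of these stages, at 4.73 (3.03 to 7.51), 4.12 (3.40 to 5.01), 1.66 (1.12 to 2.49) and 1.73 times the Mg level (1.25 to 2.41). Short-intron members gave 57, 199, 51 and 121 UMIs in Mg-TAGelMA and 64, 256, 165 and 272 UMIs in Mg. Their Mg-TAGelMA level was 2.04 times (1.40 to 2.96) and 1.67 times (1.38 to 2.01) the Mg level in surrogate light chain-positive and Rag-positive cells, but 2.81-fold lower (2.04 to 3.93) in Ighd-negative and 1.78-fold lower (1.43 to 2.23) in Ighd-positive cells. Set against Igkc, the classes parted as well. Along the B stages the ratio of long-intron UMIs per Igkc UMI was 1.58 (1.01 to 2.51), 2.50 (2.06 to 3.03), 2.55 (1.71 to 3.81) and 1.98 (1.43 to 2.75). That of short-intron UMIs was 0.680 (0.468 to 0.988), 1.01 (0.835 to 1.22), 0.545 (0.390 to 0.750) and 0.641 (0.513 to 0.798). In Rag-positive cells short-intron members gave 17.0 UMIs per 1000 Igkc UMIs in Mg-TAGelMA and 16.9 in Mg, so the higher Igkv count per Igkc of that stage lay in the long-intron class. Of all Igkv UMIs, long-intron members held 52.9%, 61.3%, 56.0% and 43.2% along the Mg-TAGelMA B stages and 4.02% in Mg-TAGelMA plasma cells. In Mg they held 32.6%, 39.0%, 21.4% and 19.8% along the B stages and 3.16% in plasma cells. The deposited counts were made with Cell Ranger 7.0.1 for Mg-TAGelMA and 5.0.0 for Mg, and whether intronic reads were counted is not given in the sources used here, so counting version and nail cannot be told apart.

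**Figure D2:**
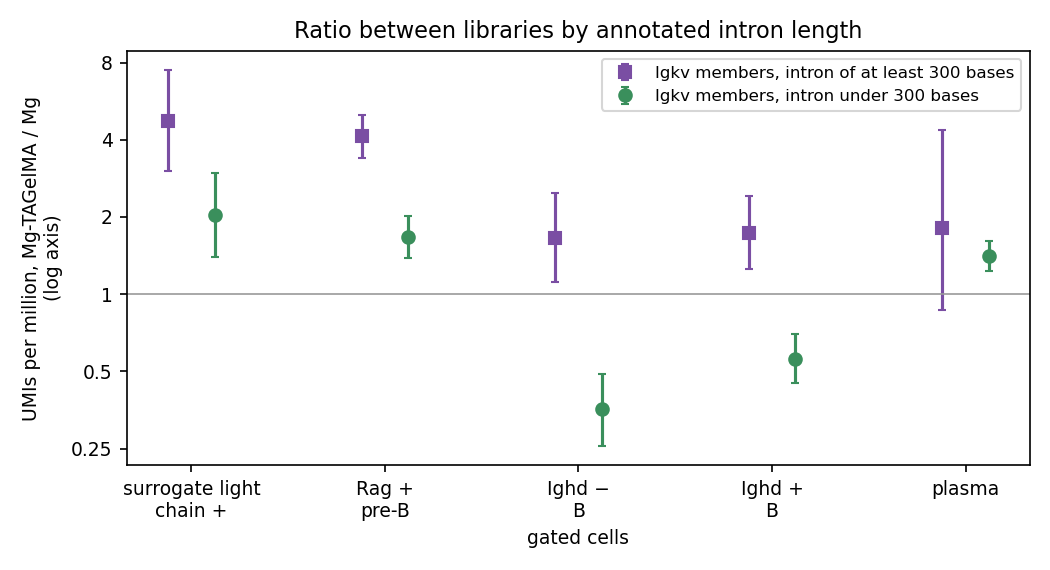
Ratio of Igkv CPM, Mg-TAGelMA over Mg (log axis), for members with a long and a short annotated intron in each gated stage, with exact 95% intervals. The long class lies above 1 in all 4 B stages (1.66 to 4.73), and the short class lies below 1 in both later B stages (0.356 and 0.561).

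Usage in surrogate light chain-positive cells was led by other genes than usage in Ighd-positive B cells. Igkv1-35, named after its values were seen, led the Mg-TAGelMA library at the early stage with 35 V UMIs (24.3%, 17.6 to 32.1), against 13 in Mg (12.6%, 6.90 to 20.6). In Rag-positive cells it gave 84 UMIs in Mg-TAGelMA (14.0%, 11.3 to 17.0) and 57 in Mg (10.3%, 7.93 to 13.2). In Ighd-negative cells it gave 14 UMIs in Mg-TAGelMA (10.5%, 5.88 to 17.0) and 4 in Mg (1.54%). In Ighd-positive cells it gave 6 UMIs in Mg-TAGelMA (2.37%, 0.875 to 5.09) and 3 in Mg (0.698%, 0.144 to 2.03). Its share was thus highest in the earliest stage and lowest in the latest B stage in both libraries, and the intervals of those stages do not overlap. Plasma cells had 0 Igkv1-35 UMIs in both libraries, which at 3 counts of the total allows a share of up to 0.0657% in Mg-TAGelMA and 0.440% in Mg. The other lineages had 3 Igkv1-35 UMIs in Mg-TAGelMA and 0 in Mg. Igkv19-93 had 14 UMIs in Mg-TAGelMA surrogate light chain-positive cells (9.72%, 5.42 to 15.8) and led the Mg cells of that stage with 18 UMIs (17.5%, 10.7 to 26.2). In Ighd-positive cells it gave 7 UMIs in Mg-TAGelMA (2.77%, 1.12 to 5.62) and 16 in Mg (3.72%, 2.14 to 5.97). Igkv12-89, also named after its values were seen, had 6 UMIs in Mg-TAGelMA (4.17%) and 14 in Mg surrogate light chain-positive cells (13.6%, 7.64 to 21.8), and 0 in Mg-TAGelMA and 3 in Mg Ighd-positive cells. All of these shares rest on small counts, and a V UMI does not tell a joined from a germline transcript.

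Ighd-positive cells were led by Igkv1-117 and Iglv1. Igkv1-117 was first in Mg-TAGelMA with 42 UMIs (16.6%, 12.2 to 21.8), against 20 UMIs in Mg (4.65%, 2.86 to 7.09), with intervals that do not overlap. Iglv1 had 25 UMIs in Mg-TAGelMA (9.88%, 6.50 to 14.2) and was first in Mg with 45 UMIs (10.5%, 7.74 to 13.8). Iglv3 had 15 UMIs in Mg-TAGelMA (5.93%, 3.36 to 9.59) and 42 in Mg (9.77%, 7.13 to 13). Both lambda genes had overlapping intervals between the libraries. Igkv1-110 had 16 UMIs in Mg-TAGelMA (6.32%) and 11 in Mg (2.56%). Igkv12-44 had 11 UMIs in Mg-TAGelMA (4.35%) and 19 in Mg (4.42%), and Igkv12-46 had 4 in Mg-TAGelMA (1.58%) and 17 in Mg (3.95%). Of these kappa genes, Igkv1-117 and Igkv1-110 are in the long-intron class and the Igkv12 genes in the short one. Over 89 members seen in either library the usage of Ighd-positive cells had a Spearman rank correlation of 0.54 between the libraries, and summed over the gated B lineage it was 0.77 over 121 members. These are descriptions across genes, which are not independent and share library and depth.

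**Figure D3:**
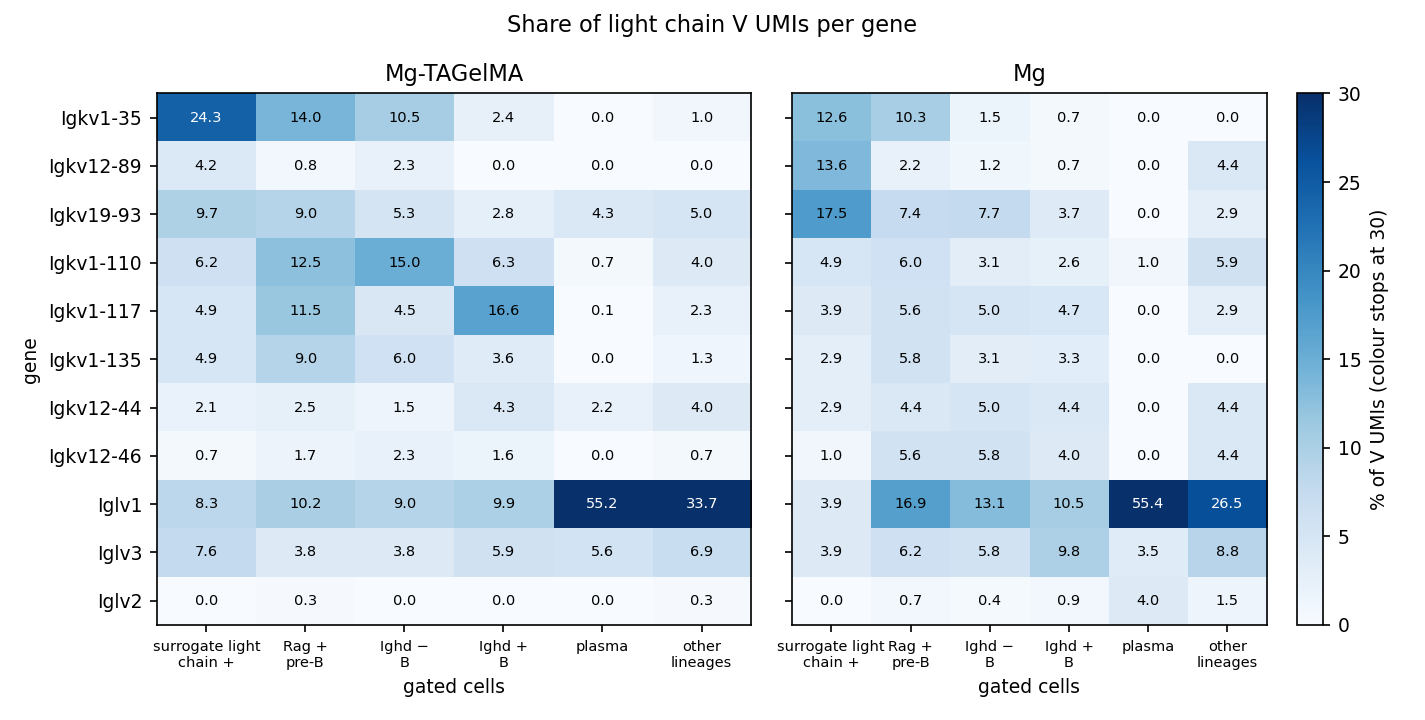
Share of all light chain V UMIs held by each named gene (colour, in percent, stopping at 30) in each gated stage and in the other lineages, Mg-TAGelMA left and Mg right. Igkv1-35 is darkest in the surrogate light chain-positive column (24.3% in Mg-TAGelMA and 12.6% in Mg) and Iglv1 in the plasma column (55.2% in Mg-TAGelMA and 55.4% in Mg).

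A gene was called different between the libraries when its interval lay wholly beyond 2-fold and it reached a minimum CPM in the higher library. In the gated B lineage as a whole (1699 Mg-TAGelMA and 3425 Mg cells) V genes read 112.4 CPM in Mg-TAGelMA and 80.6 CPM in Mg. There 0 members reached the minimum of 50 CPM, where 20.3% of all genes tested were called higher and 2.28% lower in Mg-TAGelMA. At a minimum of 10 CPM, 3 of 4 members were higher and 0 lower, against 17.7% of all genes higher and 2.03% lower. They were Igkv1-117 with 151 UMIs in Mg-TAGelMA and 85 in Mg (ratio 2.77, 2.11 to 3.66), Igkv1-110 with 176 UMIs in Mg-TAGelMA and 69 in Mg (3.98, 2.99 to 5.33) and Igkv1-35 with 175 UMIs in Mg-TAGelMA and 89 in Mg (3.07, 2.36 to 4.0). Iglv1, the remaining member, had 143 UMIs in Mg-TAGelMA and 225 in Mg, a ratio of 0.99 (0.80 to 1.23). In Rag-positive cells 4 of 6 members were higher at 10 CPM, against 14% of all genes higher and 2.33% lower. These were Igkv1-35 (ratio 3.16, 2.23 to 4.51), Igkv1-110 (75 UMIs in Mg-TAGelMA, 33 in Mg, 4.88, 3.20 to 7.58), Igkv1-117 (69 UMIs in Mg-TAGelMA, 31 in Mg, 4.77, 3.08 to 7.55) and Igkv1-135 (54 UMIs in Mg-TAGelMA, 32 in Mg, 3.62, 2.30 to 5.79). Each member called in either set is in the long-intron class. In the gated B lineage the 3 called members reached 10 CPM in Mg-TAGelMA only, and in Rag-positive cells Igkv1-110, Igkv1-117 and Igkv1-135 did. Such members could be called higher but not lower. The counts of called members beside the shares over all genes are therefore not read as a result about the members. Igkv19-93 (54 UMIs in Mg-TAGelMA, 41 in Mg, 2.83, 1.85 to 4.35) and Iglv1 (61 UMIs in Mg-TAGelMA, 93 in Mg, 1.41, 1.0 to 1.96) were not called. Scaling by TMM or by median ratios shifts all log2 ratios by -0.22 or -0.24 in the gated B lineage and by -0.18 or -0.13 in Rag-positive cells, relative to the total count used here. Under both scalings Igkv1-117 was no longer called in the gated B lineage (lower limit 1.805 with TMM and 1.79 with median ratios), and under TMM Igkv1-35 was no longer called in Rag-positive cells (lower limit 1.96). Scaled to V UMIs, Igkv1-110 alone was called in the gated B lineage and 0 members in Rag-positive cells.

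The kappa V genes lie in 1 row upstream of Igkc, and cells can be placed along it. A cell was assigned to a V gene when it had at least 2 UMIs of it and over 50% of its V UMIs. Among Ighd-negative and Ighd-positive B cells 34 of 786 Mg-TAGelMA and 58 of 1467 Mg cells were assigned, 31 of the Mg-TAGelMA and 51 of the Mg cells to an Igkv gene. Genes within 1600 kb of Igkc held 6 of the 31 Mg-TAGelMA cells (19.4%, 7.45 to 37.5) and 31 of the 51 Mg cells (60.8%, 46.1 to 74.2). Genes that run opposite to Igkc held 6 Mg-TAGelMA cells (19.4%) and 27 Mg cells (52.9%). Beyond 2400 kb lay 47.4% of the Mg-TAGelMA and 27.9% of the Mg Igkv UMIs, so usage lay farther from Igkc in Mg-TAGelMA. Long-intron members held 21 of the 31 Mg-TAGelMA cells (67.7%) and 8 of the 51 Mg cells (15.7%), and each of these cells used a gene beyond 1600 kb. With short-intron members only, the share within 1600 kb was 6 of 10 Mg-TAGelMA cells (60.0%, 26.2 to 87.8) and 31 of 43 Mg cells (72.1%, 56.3 to 84.7). Counted over UMIs of the same members it was 109 of 172 in Mg-TAGelMA (63.4%, 55.7 to 70.6) and 284 of 437 in Mg (65.0%, 60.3 to 69.5), and the share opposite to Igkc was 66.9% in Mg-TAGelMA and 66.6% in Mg. Within the short-intron class the libraries had overlapping intervals.

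**Figure D4:**
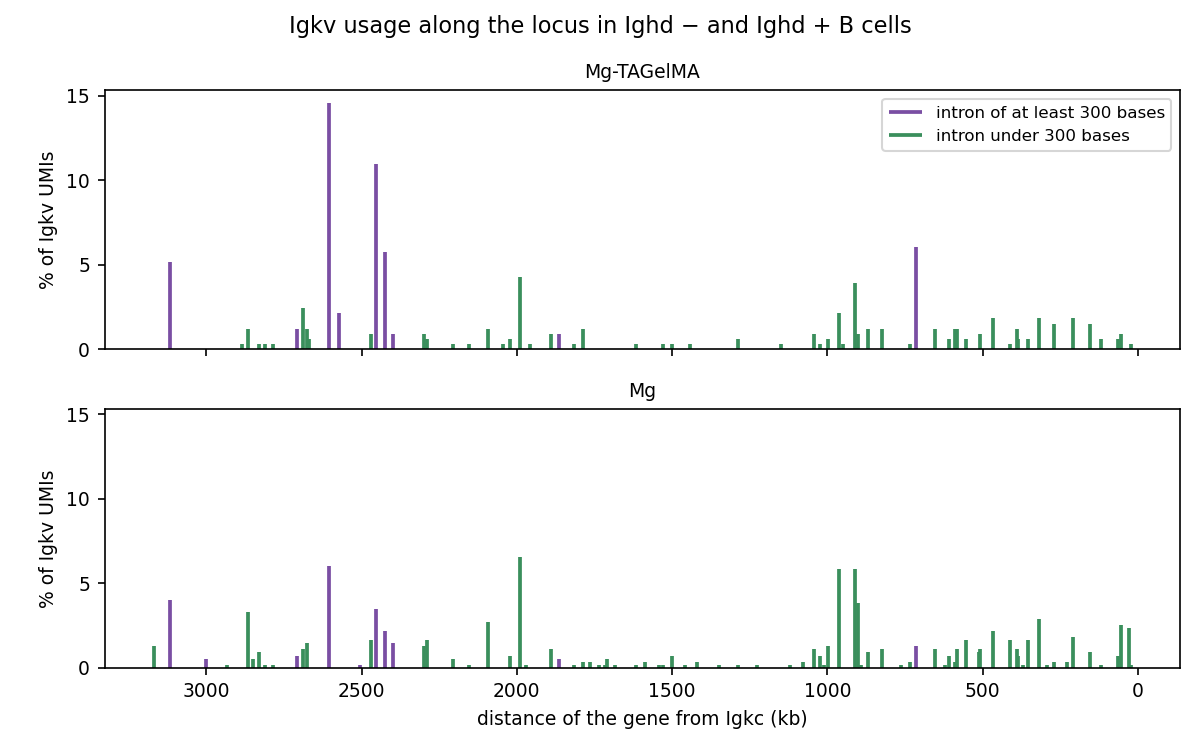
Percent of Igkv UMIs per gene against its distance from Igkc (kb) in Ighd-negative and Ighd-positive B cells, Mg-TAGelMA above Mg, coloured by intron class. Long-intron genes beyond 2400 kb stand highest in the upper panel, where that stretch held 47.4% of the Mg-TAGelMA UMIs, against 27.9% of the Mg UMIs in the lower panel.

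The lambda V genes have introns of 93 to 103 bases and stand apart from the kappa classes. In Mg-TAGelMA, Iglv genes made up 16% of V UMIs in surrogate light chain-positive cells, 14.3% (11.6 to 17.4) in Rag-positive, 12.8% in Ighd-negative and 15.8% (11.5 to 20.9) in Ighd-positive cells. In Mg they made up 7.77%, 23.8% (20.3 to 27.6), 19.2% and 21.2% (17.4 to 25.3) in the same order. In the other lineages they held 40.9% of the V UMIs in Mg-TAGelMA and 36.8% in Mg. That background was not subtracted from the Iglv values of B cells given here. Of assigned B cells, 3 of 34 in Mg-TAGelMA (8.82%) and 7 of 58 in Mg (12.1%) used an Iglv gene. The Iglv counts were set against the constant genes of the cell. Of the Ighd-negative and Ighd-positive B cells, 705 Mg-TAGelMA and 1227 Mg cells had at least 10 Igkc UMIs and more Igkc than Iglc UMIs (kappa-leading). Another 56 Mg-TAGelMA and 165 Mg cells had at least 10 Iglc UMIs and more Iglc than Igkc UMIs (lambda-leading). The remaining cells were in neither class. In the lambda-leading cells Iglv genes held 28.2% of V UMIs in Mg-TAGelMA (15 to 44.9) and 44.0% in Mg (33.6 to 54.8). In the kappa-leading cells they held 13.3% in Mg-TAGelMA (9.93 to 17.4) and 17.0% in Mg (14.0 to 20.2). Iglv1 was seen in 16.1% of lambda-leading and 3.55% of kappa-leading Mg-TAGelMA cells, and in 13.3% of lambda-leading and 3.91% of kappa-leading Mg cells. Iglv3 showed no such split, seen in 1.79% of lambda-leading and 2.55% of kappa-leading Mg-TAGelMA cells, and in 4.24% of lambda-leading and 3.91% of kappa-leading Mg cells. Of the near-identical pair Iglv1 and Iglv2, the Mg library had 4 of its 5 Iglv2 UMIs and 2 Iglv1 UMIs in the 39 cells led by Iglc2, the constant gene downstream of Iglv2. The 63 Mg cells led by Iglc1 had 18 Iglv1 and 0 Iglv2 UMIs. In the Mg-TAGelMA library Iglv2 had 0 UMIs in these stages.

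A B cell mostly expresses 1 light chain, and the counts of single cells were read for this. Of Rag-positive cells with at least 2 V UMIs, all V UMIs came from 1 gene in 9 of 143 Mg-TAGelMA cells (6.29%, 2.92 to 11.6) and 21 of 108 Mg cells (19.4%). In Ighd-positive cells they did in 17 of 47 Mg-TAGelMA cells (36.2%) and 28 of 86 Mg cells (32.6%), and over Ighd-negative and Ighd-positive cells together the share was 26.25% in Mg-TAGelMA and 28.2% in Mg. The mean number of V UMIs in such Rag-positive cells was 3.43 in Mg-TAGelMA and 2.39 in Mg, so cells of equal count were also compared. With exactly 2 V UMIs in a Rag-positive cell, both came from 1 gene in 9 of 59 Mg-TAGelMA cells (15.3%, 7.22 to 27.0) and 18 of 77 Mg cells (23.4%, 14.5 to 34.4). In Ighd-positive cells both did in 11 of 29 Mg-TAGelMA cells (37.9%, 20.7 to 57.7) and 24 of 67 Mg cells (35.8%, 24.5 to 48.5). In Ighd-negative cells both did in 2 of 19 Mg-TAGelMA cells (10.5%) and 11 of 45 Mg cells (24.4%). Most cells with such a pair of UMIs thus had 2 different V genes in both libraries. This held in Rag-positive, Ighd-negative and Ighd-positive cells alike. The intervals of Ighd-positive and Rag-positive cells overlap in both libraries, so no order of the stages is read from these shares. In the other lineages 1 of 12 Mg-TAGelMA and 2 of 6 Mg cells with exactly 2 V UMIs had both from 1 gene.

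Plasma cells showed 1 leading kappa V gene per cell. Of the 37 Mg-TAGelMA plasma cells 36 were led by Igkc and 1 by Iglc1, and of the 12 Mg cells 10 were led by Igkc, 1 by Iglc3 and 1 by Iglc2. Igkc-leading cells held a median of 34 Igkv UMIs (0 to 240) in Mg-TAGelMA and 26.5 (1 to 52) in Mg. Among cells with at least 10 Igkv UMIs, the leading Igkv gene gave over 90% of them in 28 of 32 Mg-TAGelMA and 5 of 7 Mg cells. There were 24 different leading genes in the 34 Mg-TAGelMA cells with an Igkv UMI and 10 in the 10 Mg cells, so no single kappa V gene filled the gate. Igkv6-23 led in 5 Mg-TAGelMA cells, more than any other gene there, and in 1 Mg cell. Of the largest counts in Mg-TAGelMA, Igkv8-28 had 240 UMIs in an IgG cell and Igkv19-93 had 195 in an IgA cell. Igkv14-100 had 111 UMIs in an IgG cell of Mg-TAGelMA and 32 in an IgG cell of Mg, and Igkv5-48 was the highest in Mg with 52 UMIs in an IgA cell. By heavy chain constant gene, the Igkc-leading Mg-TAGelMA cells were 20 IgA, 12 IgG and 2 IgM cells and 2 with under 100 heavy chain UMIs. The Mg cells were 6 IgA, 2 IgG and 2 IgM cells.

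Iglv1 was counted in 32 of 36 Mg-TAGelMA and 7 of 10 Mg kappa plasma cells too, with sums close to those of the leading kappa V genes. Summed over the Igkc-leading Mg-TAGelMA cells, the leading Igkv genes gave 1726 UMIs, Iglv1 2343, Iglv3 254 and the lambda constant genes together 3503, beside 433808 UMIs of Igkc. Summed over the Mg cells, the leading Igkv genes gave 225 UMIs, Iglv1 210, Iglv3 21 and the lambda constant genes 315, beside 49777 UMIs of Igkc. Iglv1 exceeded the leading Igkv gene in 12 of 36 Mg-TAGelMA and 1 of 10 Mg cells, and exceeded the summed Iglc genes in 8 of 36 Mg-TAGelMA and 1 of 10 Mg cells. The highest cell, an IgG cell of Mg-TAGelMA, had 398 Iglv1 UMIs with 34 Iglc UMIs, 13475 Igkc UMIs and 47 UMIs of its leading gene, Igkv6-23. Iglv1 counts were unequal between heavy chain classes. In IgG cells they ran from 17 to 398 (median 56.5, 12 cells) in Mg-TAGelMA and were 21 and 155 in the 2 Mg cells. In IgA cells they ran from 0 to 72 (median 11, 20 cells) in Mg-TAGelMA and from 0 to 15 (median 0.5, 6 cells) in Mg. Per 1000 Igkc UMIs, Iglv1 gave 8.37 UMIs in IgG and 1.85 in IgA cells of Mg-TAGelMA, and 7.62 in IgG and 1.11 in IgA cells of Mg. These are sums that a few cells carry. Per cell the Mg-TAGelMA medians were 3.92 in IgG cells (2.46 to 29.5) and 1.26 in IgA cells (0 to 13.2), so the classes overlapped. The 2 Mg IgG cells were at 11.4 and 2.21, the lower of them within the Mg IgA range (0 to 4.39). IgG cells also held more UMIs than IgA cells, with medians of 41449 and 24745 in Mg-TAGelMA and of 40155.5 and 12877.5 in Mg. The 3 cells led by a lambda constant gene had high Iglv1 as well. The Mg-TAGelMA cell had 179 Iglv1 UMIs beside 13870 of Iglc1, and the Mg cells had 120 Iglv1 UMIs beside 8255 of Iglc3 and 48 Iglv1 with 27 Iglv2 UMIs beside 7073 of Iglc2. These cells had 0 to 3 Igkv UMIs. Whether the Iglv1 counts of kappa cells come from a transcript of that gene or from reads of other sequence was not tested.

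Few plasma cells were captured, and single cells held most UMIs of several members that differed between the libraries. At the 50 CPM minimum 18 members were tested in plasma cells, and 5 were higher and 5 lower in Mg-TAGelMA, against 7.68% of all genes higher and 5.02% lower. Among the higher ones, Igkv19-93 (196 UMIs in Mg-TAGelMA), Igkv3-4 (119 UMIs) and Igkv12-44 (99 UMIs) each had 0 UMIs in Mg. With that 0 set to 3 counts over the group, they were 13.1-fold (4.43 to 64.2), 7.97-fold (2.66 to 39.2) and 6.63-fold higher (2.20 to 32.7). Igkv8-28 had 290 UMIs in Mg-TAGelMA and 1 in Mg (58.3-fold higher, 10.4 to 2310), and Igkv3-2 had 112 UMIs in Mg-TAGelMA and 2 in Mg (11.3-fold higher, 3.04 to 94.1). Among the lower ones, Igkv5-39 (34 UMIs in Mg) and Igkv4-53 (25 UMIs in Mg) each had 0 UMIs in Mg-TAGelMA. With that 0 set to 3 counts, Igkv5-39 was 56.4-fold lower (ratio 0.0177, 0.00349 to 0.0564). Igkv4-53 was 41.5-fold lower (ratio 0.0241, 0.00466 to 0.0791). Igkv5-48 had 36 UMIs in Mg-TAGelMA and 52 in Mg (7.19-fold lower, 4.61 to 11.3). Igkv4-59, of whose windows 71.3% are unique, had 5 UMIs in Mg-TAGelMA and 36 in Mg (35.8-fold lower, 14.0 to 117), and Iglv2 had 2 UMIs in Mg-TAGelMA and 27 in Mg (67.2-fold lower, 16.9 to 583). Igkv3-4 and Igkv4-53 were named after their values were seen. Igkv4-59, Igkv5-39, Igkv4-53 and Igkv5-48 were each the leading gene of 1 Mg plasma cell, and the 27 Iglv2 UMIs came from 1 cell. Igkv19-93 had 195 of its 196 UMIs in 1 Mg-TAGelMA cell, and Igkv3-4 had all 119 in 1. Iglv1 was not called, with 2522 UMIs in Mg-TAGelMA and 378 in Mg (ratio 1.34, 1.20 to 1.5), nor was Iglv3, with 254 UMIs in Mg-TAGelMA and 24 in Mg (2.13, 1.40 to 3.38). The median log2 ratio was 1.10 over the members tested and -0.31 over all genes tested, and scaling by TMM or by median ratios shifts all plasma cell log2 ratios by 0.38 or 0.31. A member with 0 UMIs in 1 library passed the minimum only through the other, with a ratio set by the 3 counts. The member calls and their median beside all genes are therefore not read as a result about the members.

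The V UMIs of the other lineages resembled those of plasma cells in the Mg-TAGelMA library. They numbered 303 UMIs over 46 members in Mg-TAGelMA and 68 UMIs over 27 members in Mg. Iglv1 was first in both, with 102 UMIs in Mg-TAGelMA (33.7%) and 18 in Mg (26.5%), and Iglv3 had 21 in Mg-TAGelMA and 6 in Mg. In Mg-TAGelMA the Iglv share was 40.9% (35.3 to 46.7) in the other lineages, between 15.2% in the gated B lineage and 60.8% in plasma cells. In Mg it was 36.8% (25.4 to 49.3) in the other lineages, between 21.2% in the gated B lineage and 62.9% in plasma cells. Members seen in plasma cells of the same library gave 92.7% of these UMIs in Mg-TAGelMA and 64.7% in Mg, and 64.5% of the V UMIs of the gated B lineage in Mg-TAGelMA and 34.8% in Mg. The usage profile of the Mg-TAGelMA other lineages overlapped by 74.5% with that of plasma cells and by 47.1% with that of the gated B lineage, where overlap is the sum over members of the smaller of the shares compared. In Mg the overlap was 46.0% with plasma cells and 54.7% with the gated B lineage. The level differed little between the 4 lineages, at 6.57 to 9.79 CPM in Mg-TAGelMA and 2.59 to 3.39 CPM in Mg. Jchain, a plasma cell transcript, read 98.3 CPM in Mg-TAGelMA and 26.6 CPM in Mg cells of the neutrophil gate, so it was higher in the Mg-TAGelMA library as well.

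Members annotated as pseudogenes gave little. In Mg-TAGelMA they held 9.72% of V UMIs in surrogate light chain-positive cells (5.42 to 15.8), 2.50% in Rag-positive and 5.14% in Ighd-positive cells and 0.0219% in plasma cells. In Mg they held 0.971%, 3.63%, 4.19% and 0% in the same order. Of the 60 pseudogenes 13 had a UMI in Mg-TAGelMA and 23 in Mg. Igkv2-116, a pseudogene with a 371-base intron named after its values were seen, had the most Mg-TAGelMA UMIs of them, 18, against 1 UMI in Mg. Of all members 36 had 0 UMIs in both libraries, 32 pseudogenes and 4 genes. The first 10 members held 75.1% of the Mg-TAGelMA and 59.2% of the Mg V UMIs, and 41 members in Mg-TAGelMA and 46 in Mg had at least 10 UMIs.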

How the data were processed

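The authors deposited raw UMI counts for each gene in each barcode and did not scale them. The gene tables and barcode lists deposited with them hold no measurements. Per the file headers, Cell Ranger 7.0.1 made the Mg-TAGelMA counts and Cell Ranger 5.0.0 the Mg counts. STAR and the mm10 genome are named per the submitters' processing notes. Annotation release, intron setting and pooling of mice are not given in the sources used here.

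Barcodes with at least 200 genes and at most 15% mitochondrial counts were kept, and doublets called by scrublet (scanpy 1.11.5) were removed, 297 in Mg-TAGelMA (3.95%) and 197 in Mg (2.37%). Stages were gated on markers as given above, with gate minimums set after the data were seen. The B lineage gate list is not reported here in full. A plasma cell needed a UMI of each of at least 3 genes beside Jchain, and gates of the other lineages used marker UMIs per cell with at most 2 B lineage UMIs. Cells above the gate of more than 1 lineage were left out. Ighd and Ms4a1 were used only for B lineage cells outside the surrogate light chain and Rag gates. Of those, cells with exactly 1 Ighd UMI, or with 0 Ighd UMIs and no Ms4a1, were in no stage. They count in the gated B lineage as a whole. UMIs were summed per library and stage and scaled to the stage total (CPM). Shares have exact Clopper-Pearson, levels exact Poisson and ratios exact conditional binomial intervals at 95%, for counting error only. PCR copies were collapsed by UMI, but cells of 1 library are not replicates. For ratios of single genes a count of 0 was set to 3, and the interval of such a ratio treats the 3 counts as observed. TMM factors came from edgeR 4.0.16 and median-ratio factors from DESeq2 1.42.0 (R 4.3.3). The calls were tested on simulated data (Python 3.11.15, numpy 2.4.6, pandas 2.3.3, scipy 1.17.1).

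Positions, introns and transcript sequences were read from GENCODE vM21, an annotation of GRCm38 (mm10), and all 163 members matched by identifier. Coding sequences were aligned with Biopython 1.88. The members and gene lists were chosen with earlier results of these data known. Named genes were all Iglv members, the 10 members with the most assigned B cells, the 5 with the most plasma cell UMIs per library, up to 5 per direction past the size rule in the summed B lineage, and the 3 with the most UMIs in other lineages per library. Genes outside this rule were chosen after their values were seen, and the text says so for each.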

Additional observations from a re-analysis of the deposited data

How the results depend on the processing

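Over 36 results and 17 alternatives, 140 of 179 values moved by less than their counting interval or stayed within 1.5 times, 37 moved and 2 reversed. Keeping doublets or asking for 500 genes per cell moved 0 values. With TMM, median-ratio scaling or a 1.5-fold bound, 7 members were higher in plasma cells, against 5. At 50 CPM the gated B lineage had no member to test, so scaling says nothing there, and at 10 CPM TMM or median ratios left 2 of 3 calls. The alternatives on intron class, on Iglv1, on gene usage and on calls at 10 CPM were chosen after seeing the data. Ratios are Mg-TAGelMA over Mg.

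With long-intron Igkv members only, the Ighd-negative and Ighd-positive ratios reversed to 1.66 and 1.73, and the others were 4.73 (surrogate light chain-positive), 4.12 (Rag-positive) and 1.81 (plasma). With short-intron members only, the 4 B stage ratios were 2.04, 1.67, 0.356 and 0.561, and of the assigned Mg-TAGelMA cells 60.0% lay within 1600 kb of Igkc and 50% ran opposite. Thinned to 1000 UMIs per cell, the ratios were 2.44, 1.90, 0.739 and 1.57 (surrogate light chain-positive, Rag-positive, Ighd-negative, plasma). The other lineages read 8.81 CPM in Mg-TAGelMA and 5.97 CPM in Mg (ratio 1.48). The Iglv share of assigned cells was 0% in Mg-TAGelMA and 50% in Mg, and the Mg-TAGelMA Rag-positive single-gene share was 30%. Thinning left 79 V UMIs in Mg-TAGelMA and 183 in Mg Ighd-negative and Ighd-positive cells together. It left 92 in Mg-TAGelMA Rag-positive cells. These shares thus rest on few cells and are not read as shifts. With gate minimums raised by 1, the Ighd-negative ratio was 0.814, the Mg-TAGelMA Iglv share 0% and the Mg-TAGelMA Iglv1 share of Rag-positive V UMIs 6.63%. With clusters in place of gates, the Rag-positive ratio was 2.75. No cluster gave an Ighd-negative stage in the Mg-TAGelMA library, so the Ighd-negative ratio could not be had. The Mg-TAGelMA single-gene share was 41.8% over clustered Ighd-positive cells alone, while the gated 26.25% covers Ighd-negative and Ighd-positive cells. With immunoglobulin genes left out of the total, the plasma ratio was 1.65. Assignment at 3 UMIs and 80% gave an Iglv share of 0% in both libraries, and 0% of Mg-TAGelMA cells near Igkc and 0% opposite. That rule draws only on the cells assigned above, at most 34 in Mg-TAGelMA and 58 in Mg, so these shares also rest on few cells. At 5 V UMIs the Mg-TAGelMA Rag-positive single-gene share was 0%. Without Iglv1 the other lineages read 4.99 CPM in Mg-TAGelMA and 2.21 CPM in Mg. In the gated B lineage 3 members were higher at 10 CPM and 4 with no minimum, and scaled to V UMIs 3 members were higher in plasma cells, 1 in the gated B lineage at 10 CPM and 0 in Rag-positive cells. The causes were not tested.

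No paired analysis was possible because each nail has 1 library. Depth limits these results, as does the single library per nail. Few cells had 2 V UMIs, few plasma cells were captured, and 3' counting sees few V fragments, so a member with 0 UMIs was not detectable at this depth and is not shown to be absent.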
